A study of Mus musculus with 10 samples.

Results

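The variable segments of the immunoglobulin genes were followed in RNA of mouse tumors. Members were the genes named Ighv, Igkv or Iglv with a number whose estimated count was above 0 in at least 1 of 10 libraries. This gave 122 of the 172 such segments in a table of 34449 genes, and the other 50 had a count of 0 in every library. Of the members, 46 belong to the heavy chain locus on chromosome 12, 73 to the kappa locus on chromosome 6 and 3 to the lambda locus on chromosome 16. The libraries came from subcutaneous tumors of 4T1, a triple-negative mammary carcinoma line, in BALB/C mice that the series text gives as 9 weeks old. The 5 control libraries (C1 to C5) were labelled control, with no further agent named, and the 5 therapy libraries (T1 to T5) came from tumors treated with BC@Z-M + L. BC@Z-M is a nanoparticle carrying a hypoxia-activated photosensitizer and a vascular disrupting agent under a coat of macrophage membrane, and L is near-infrared irradiation of the tumor. All tumors grew from this 1 cell line in hosts with their own immune system. Whether every library stands for its own mouse is not stated, and p-values below therefore describe spread among libraries only.

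Each B cell joins 1 of many germline V segments to a J segment (with a D segment between them in the heavy chain) and so fixes the variable part of its antibody chains. Descendants of that cell keep the joined segments, and plasma cells, the antibody-secreting end stage, transcribe them far more strongly than resting B cells. In bulk RNA a tissue with many unrelated B lineage cells therefore shows many segments at like levels, while an expanded clone or a few plasma cells can show as 1 segment that stands above the rest. Bulk RNA cannot tell fewer cells from less RNA per cell, and cannot say which heavy and light segments were in the same cell.

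The sequences below are the germline 3′ ends of selected segments, those that led a library or one of its loci and those high beside them in T3 (Igkv1-88 and Igkv12-38), from the GENCODE M21 transcripts on GRCm38, with the gene's coordinates. They are shown because this end enters the antigen-binding loop joined to J. Capitals mark the bases after the conserved tyrosine-tyrosine-cysteine or tyrosine-phenylalanine-cysteine codons, which open the third complementarity-determining region.
Igkv9-120 (chr6:68049983-68050456, plus strand): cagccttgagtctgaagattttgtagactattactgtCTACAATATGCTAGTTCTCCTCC
Igkv1-110 (chr6:68270485-68271267, plus strand): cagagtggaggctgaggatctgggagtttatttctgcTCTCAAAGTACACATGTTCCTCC
Igkv4-53 (chr6:69648824-69649363, minus strand): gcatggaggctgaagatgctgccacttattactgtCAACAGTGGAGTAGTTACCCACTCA
Igkv1-88 (chr6:68862265-68863031, minus strand): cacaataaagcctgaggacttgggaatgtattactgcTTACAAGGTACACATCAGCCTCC
Igkv12-38 (chr6:69943186-69943648, minus strand): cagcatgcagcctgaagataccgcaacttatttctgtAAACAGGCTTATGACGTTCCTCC
Igkv6-15 (chr6:70406469-70406992, minus strand): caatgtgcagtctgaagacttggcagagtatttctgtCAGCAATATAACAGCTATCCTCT
Ighv5-17 (chr12:113859149-113859670, minus strand): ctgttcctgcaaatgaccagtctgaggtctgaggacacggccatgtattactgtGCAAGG
Ighv4-1 (chr12:113948282-113948796, minus strand): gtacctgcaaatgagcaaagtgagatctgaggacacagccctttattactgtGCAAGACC
Ighv10-1 (chr12:114479005-114479451, minus strand): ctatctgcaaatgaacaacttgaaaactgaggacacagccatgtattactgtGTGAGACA
Iglv1 (chr16:19085017-19085500, minus strand): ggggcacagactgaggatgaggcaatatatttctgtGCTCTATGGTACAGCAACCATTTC
After the cysteine codon the kappa segments carry 23 bases (25 in Igkv4-53), Ighv5-17 carries 6, Ighv4-1 and Ighv10-1 carry 8, and Iglv1 carries 24. The heavy chain ends are short because most of that loop comes from the D and J segments.

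Several members are near copies of each other, which limits how surely a count belongs to its segment. Over the last 270 bases, 64 of the 122 members have another annotated segment at 95% identity or more, and 100 at 90% or more (median identity to the nearest segment 95.2%). The last 150 bases of 4 pairs that matter below are printed with capitals where the members of the pair differ.
Igkv9-120 (chr6:68049983-68050456, plus strand): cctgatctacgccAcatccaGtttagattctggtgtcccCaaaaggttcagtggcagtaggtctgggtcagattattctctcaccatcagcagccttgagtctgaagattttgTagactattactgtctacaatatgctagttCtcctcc
Igkv9-124 (chr6:67942074-67942540, minus strand): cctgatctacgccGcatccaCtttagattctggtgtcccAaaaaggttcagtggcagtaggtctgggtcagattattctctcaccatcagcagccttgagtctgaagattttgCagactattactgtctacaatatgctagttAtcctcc
Ighv4-1 (chr12:113948282-113948796, minus strand): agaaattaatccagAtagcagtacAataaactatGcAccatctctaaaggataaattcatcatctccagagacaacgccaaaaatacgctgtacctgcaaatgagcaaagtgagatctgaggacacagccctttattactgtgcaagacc
Ighv4-2 (chr12:114013144-114013606, minus strand): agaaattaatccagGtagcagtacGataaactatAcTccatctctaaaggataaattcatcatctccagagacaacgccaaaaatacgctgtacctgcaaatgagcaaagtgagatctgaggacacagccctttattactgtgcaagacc
Igkv1-110 (chr6:68270485-68271267, plus strand): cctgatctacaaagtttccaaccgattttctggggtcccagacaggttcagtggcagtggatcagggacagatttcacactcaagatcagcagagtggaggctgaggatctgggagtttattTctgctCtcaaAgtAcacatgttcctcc
Igkv1-117 (chr6:68121046-68121827, plus strand): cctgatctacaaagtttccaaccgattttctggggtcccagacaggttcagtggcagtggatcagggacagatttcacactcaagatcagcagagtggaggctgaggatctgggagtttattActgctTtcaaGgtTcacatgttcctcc
Iglv1 (chr16:19085017-19085500, minus strand): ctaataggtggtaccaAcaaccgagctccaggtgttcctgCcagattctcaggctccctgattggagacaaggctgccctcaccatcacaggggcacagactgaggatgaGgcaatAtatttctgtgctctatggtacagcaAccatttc
Iglv2 (chr16:19260401-19260859, minus strand): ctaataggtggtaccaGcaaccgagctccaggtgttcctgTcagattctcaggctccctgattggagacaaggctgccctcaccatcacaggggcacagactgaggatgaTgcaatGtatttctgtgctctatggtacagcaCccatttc
Igkv9-120 and Igkv9-124 differ at 5 of these bases, Ighv4-1 and Ighv4-2 at 4, Igkv1-110 and Igkv1-117 at 4, and Iglv1 and Iglv2 at 5. The reference genome is of C57BL/6, whose variable loci differ from those of BALB/c, and how reads of strain-specific segments were assigned was not tested. The deposited genes include 172 of the 348 such segments in GENCODE M21 (heavy chain 78 of 185, kappa 91 of 160, lambda 3 of 3). Segments not listed could not be counted, which limits every number of segments and comparison of loci below. Of the members 6 are annotated as pseudogenes, among them Ighv4-2, and 3 overlap another gene (Iglv1, Igkv2-137 and Ighv1-5), from which unstranded reads cannot be told apart.

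Depth was alike in both groups, with 53411182 to 65263003 estimated counts in control libraries and 53446143 to 77510631 in therapy libraries. Low counts in the table pile up at 4 (1103 to 1397 genes a library, against 496 to 672 at 3), so 1 count need not be 1 read. Counts of 1 (894 to 974 genes) and 2 (745 to 1048 genes) were common too. The step of 4 used below is therefore an assumption. Member values were sparse. Of 1220 values 365 were above 0 and 126 reached 10, and a count of 0 allows up to 3 steps of 4 counts, 12 in all, or 0.155 to 0.225 CPM (counts per 1e6, scaled by TMM). Intervals for shares were computed on counts divided by 4 (Wilson, 95%) and cover counting error only. C1 had very few member counts, and C2 was dominated by 1 segment. The sums are therefore also given without them.

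Summed expression of variable segments was higher in all 5 therapy libraries than in 4 of the 5 control libraries, and C2 was the exception. Summed over members the estimated counts were 33 in C1, 792 in C2, 167 in C3, 314 in C4 and 225 in C5. The therapy libraries had 600 in T1, 648 in T2, 553 in T3, 789 in T4 and 552 in T5. The therapy libraries lay close together and above C1, C3, C4 and C5, and C2 lay above all 5 of them. In CPM the sums were 4.81 ± 4.57 in control and 10.15 ± 1.56 after therapy (SD, n = 5 each), and the group means of log2(CPM + 0.05) differed by 1.62. Without C2 the highest control was 4.89 CPM, below the lowest therapy library at 7.76 CPM, and the log2 difference was 2.10. Without C1 it was 1.05, and without both 1.50. No p-value is given for sums, because the members were chosen with earlier results known.

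**Figure D1:**
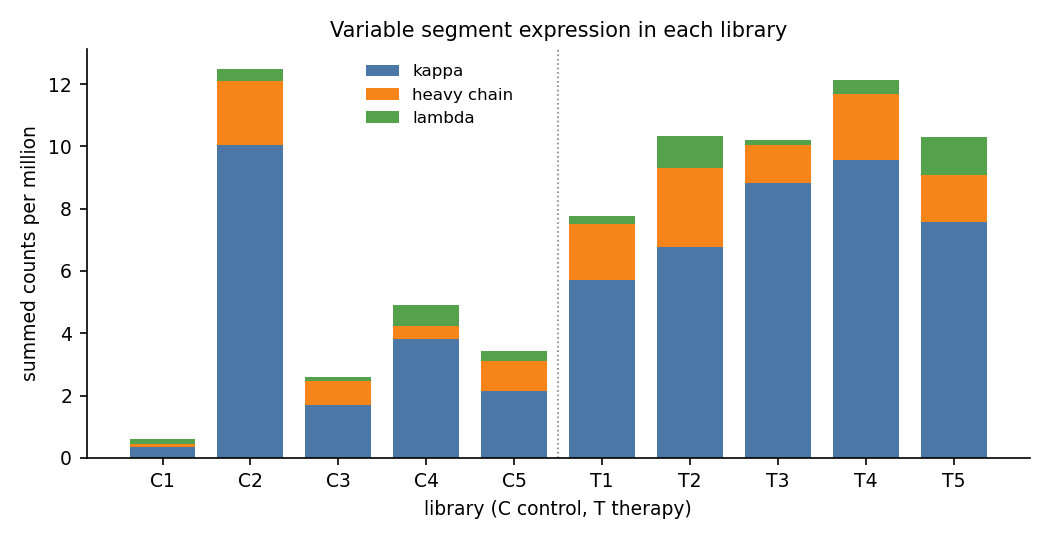
Summed CPM of variable segments in each library, stacked by locus (kappa, heavy chain, lambda), for control libraries C1 to C5 and therapy libraries T1 to T5. The 5 therapy libraries reach 7.76 to 12.14 CPM, and among the controls C2 alone reaches that range, at 12.5 CPM.

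The kappa locus carried most of the counts, and kappa is the usual light chain of the mouse. Its summed counts were 19, 637, 110, 245 and 140 in C1 to C5 and 441, 424, 479, 622 and 405 in T1 to T5. Again C2 was the only control among the therapy libraries, and the log2 difference was 1.74 (2.28 without C2, 1.12 without C1). Heavy chain segments summed to 4, 130, 50, 27 and 63 counts in C1 to C5 and to 139, 160, 66, 138 and 82 in T1 to T5. All 5 therapy libraries exceeded C1, C3, C4 and C5 in counts, and the log2 difference of CPM was 1.53 (1.96 without C2, 0.95 without C1). Lambda segments summed to 10, 25, 7, 42 and 22 counts in the controls and to 20, 64, 8, 29 and 65 after therapy. The lambda groups overlapped broadly, with a log2 difference of 0.63, and only T2 and T5 exceeded all controls. Kappa segments made up 65.5% to 96.2% of light chain segment counts in control libraries and 86.2% to 98.4% in therapy libraries.

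More different segments were seen after therapy. Members with a count numbered 8 in C1, 36 in C2, 22 in C3, 34 in C4 and 33 in C5. They numbered 49 in T1, 47 in T2, 33 in T3, 63 in T4 and 40 in T5, so 4 of the 5 therapy libraries exceeded all controls and T3 did not (26.6 ± 11.7 against 46.4 ± 11.2, SD, n = 5 each). Counting only members above 4 gave 1, 19, 12, 21 and 14 in the controls and 36, 33, 24, 37 and 26 after therapy, where the groups no longer overlapped. At a count of at least 10 there were 1, 9, 8, 12 and 7 in the controls and 19, 18, 12, 23 and 17 after therapy, with T3 level with C4. Of the 122 members, 80 (65.6%) had a count in more therapy than control libraries and 24 (19.7%) in fewer. Over the 33285 genes with any count these shares were 19.6% and 15.8%. A gene with a count in every library can fall on neither side, which lowers these background shares. Member values were sparse, so this comparison is not like for like and the size of the contrast should not be read from it.

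The number of segments seen rises with the number of counts, so libraries were also compared in equal draws. In a draw of 33 member counts, the total of C1, the expected number was 8, 10.65, 16.1, 18.05 and 18.3 segments in C1 to C5 and 20.2, 19.1, 15.2, 18.3 and 17.5 in T1 to T5. At this depth the groups overlapped and the mean difference was 3.9 segments, in place of 19.8 for all counts. With C1 left out, a draw of 167 counts gave 24.7, 22.0, 32.2 and 32.5 segments in C2 to C5 and 42.0, 39.0, 29.2, 46.4 and 33.8 in T1 to T5. There T3 alone lay within the control range, and T5 lay above C5 by little (control 27.8 ± 5.29, n = 4, therapy 38.1 ± 6.77, n = 5, SD).

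**Figure D2:**
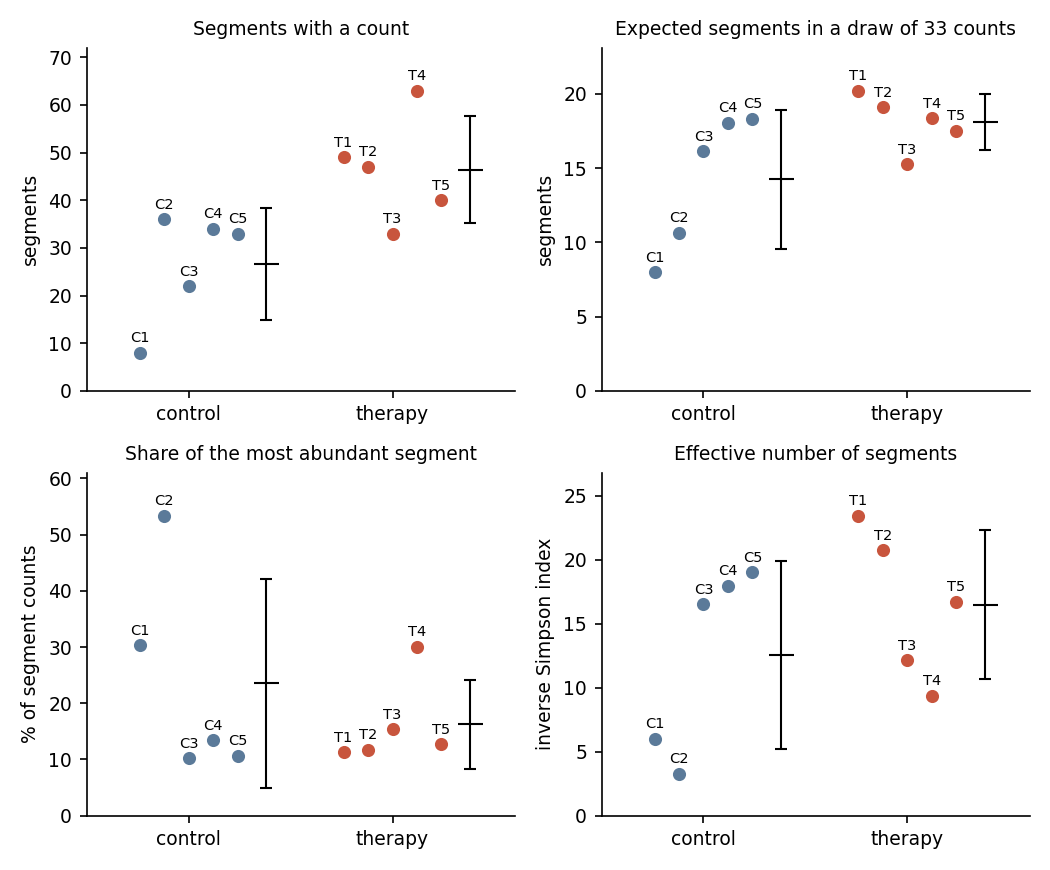
Segments with a count, expected segments in a draw of 33 counts, share of the most abundant segment (% of segment counts) and effective number of segments (inverse Simpson index), 1 point per library with mean and SD at the right of each group. T1, T2, T4 and T5 have more detected segments than any control, but in equal draws 3 controls (C3, C4, C5) reach 16.1 to 18.3 segments, within the therapy range of 15.2 to 20.2.

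Dominance by a single segment did not separate the groups. The most abundant member was Iglv1 in C1 (30.3% of member counts), Igkv9-120 in C2 (53.4%), Ighv5-17 in C3 (10.2%), Igkv1-110 in C4 (13.4%) and Ighv5-17 in C5 (10.7%). After therapy it was Ighv5-17 in T1 (11.3%), Igkv1-110 in T2 (11.7%), Igkv4-53 in T3 (15.4%), Igkv1-110 in T4 (30.04%) and Igkv6-15 in T5 (12.7%). C2 and T4 therefore stood above the other libraries of their groups, apart from C1, whose share rests on 10 of 33 counts (interval 7.15% to 59.1%). The interval was 46.6% to 60.4% for C2 and 23.99% to 36.7% for T4. The group means were 23.6% ± 18.6 and 16.2% ± 7.88 (SD, n = 5 each), and without C2 the difference of -7.4 percentage points became 0.1. The effective number of segments (inverse Simpson index, the number of equally abundant segments with the same dominance) was 6.02, 3.28, 16.5, 18.0 and 19.0 in C1 to C5 and 23.5, 20.7, 12.1, 9.39 and 16.7 in T1 to T5. These ranges overlapped as well.

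**Figure D3:**
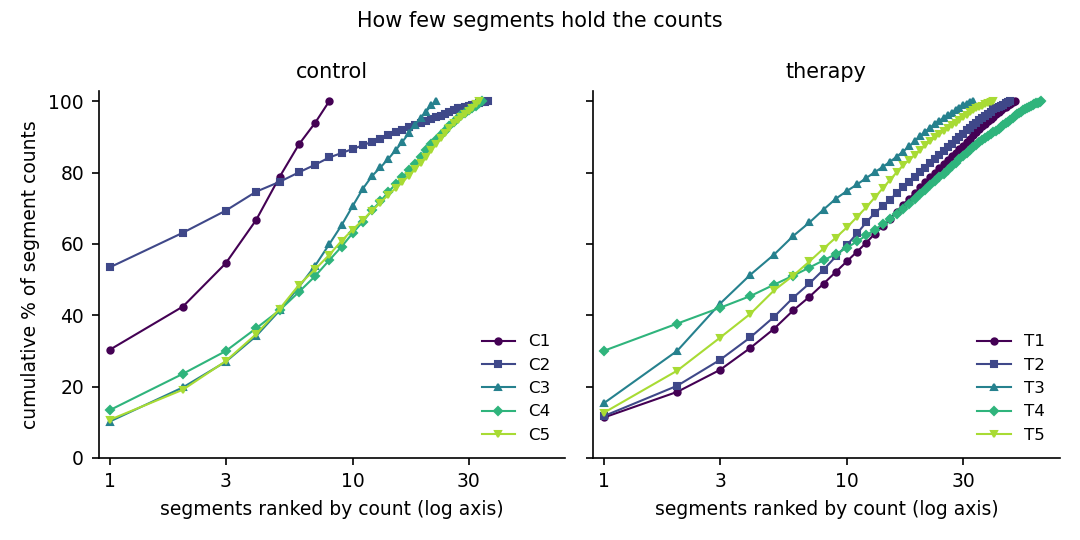
Cumulative share of variable segment counts against segments ranked by count (log axis), 1 line per library, control at the left and therapy at the right. C2 starts at 53.4% with its first segment and T4 at 30.04%, while C3, C4 and C5 start between 10.2% and 13.4%.

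C2 had the highest counts of a set of segments, 3 of which the other libraries had little of. Igkv9-120, a kappa segment, had 0, 423, 0, 10 and 2 counts in C1 to C5 and 0, 6, 0, 0 and 0 in T1 to T5, so 95.9% of its counts were in C2. It reached 16.7 FPKM there. Igkv4-59 had 77 counts in C2 and 0 in every other control, and 0, 25, 17, 2 and 16 in T1 to T5. The heavy segments Ighv4-1 (49) and Ighv4-2 (42) were both at 0 in the other controls, and in therapy libraries Ighv4-1 had 4 counts in T1 and 2 in T4. Since this pair differs at 4 of the 150 bases printed, the counting could have split 1 transcript between them. Together these 4 were the leading kappa and heavy members of C2. The same library had 1290 counts of Ighg1, the IgG1 constant region, which was 54.3% of its heavy constant counts, and 30 of Igkj5, a kappa joining segment that had 0 to 8 elsewhere.

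T3 held a different set. Igkv4-53 had 85 counts in T3, 9 in C3, 20 in C4, 2 in T4 and 0 in the rest. Igkv1-88 had 81 in T3, 6 in T1, 4 in T4 and 0 in all controls. Igkv12-38 had 73 in T3 and 0 in the other 9 libraries, and was the most abundant member detected in 1 library only. These 3 kappa segments, at like counts, made up 49.9% of the kappa counts of T3 and 43.2% of its member counts. Ighv2-9 led its heavy counts with 20 of 66 (30.3%). T3 also had 748 counts of Ighg1, the highest after C2.

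T4 and T5 were led by segments found in many libraries. Igkv1-110 had 237 counts in T4, and Igkv9-124, the near copy of Igkv9-120, had 60 there, where Igkv9-120 had 0. Igkv9-124 also had 2 counts in C5, 9 in T1, 11 in T2 and 0 in C2, so that the highest counts of the near copies were in different libraries, while C5 and T2 held counts of both. The leading heavy segment of T4 was Ighv1-9 with 26 counts, and heavy counts were spread most evenly there (effective number 10.4, against 2.0 to 6.08 in the other libraries). T5 was led by Igkv6-15 with 70 counts and Iglv1 with 65, beside 44 counts of Iglc1, a constant region that Iglv1 is usually joined to. Ighv10-1 had 37 counts in T5, 8 in T2 and 0 elsewhere. In T1 the leading member was the heavy segment Ighv5-17 with 68 counts, which was 48.9% of its heavy counts.

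**Figure D4:**
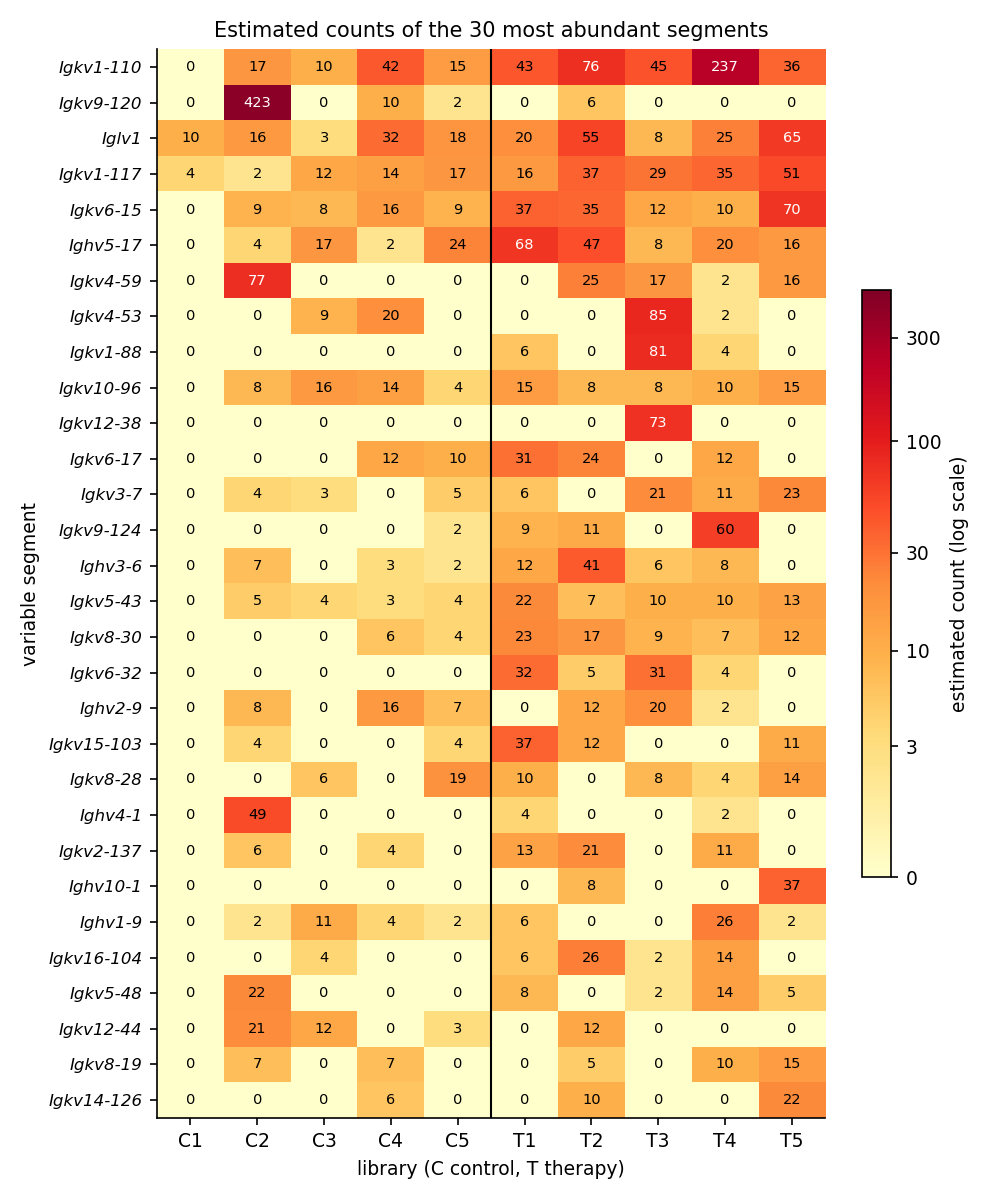
Estimated counts of the 30 variable segments with the highest mean CPM (rows) in the 10 libraries (columns), with color on a log scale and the count in each cell. Igkv1-110 is spread over 9 libraries, whereas Igkv9-120 (423 in C2) and Igkv12-38 (73 in T3) have nearly all of their counts in 1 library.

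Most members were concentrated in 1 library. For 88 of the 122 members (72.1%) a single library held at least 50% of the counts, and 43 (35.2%) were detected in 1 library only. Over the 18301 genes with no more counts than the highest member these shares were 43.0% and 23.4%, and a gene with very few counts reaches them by its low count alone. Of the 43, 16 were seen in a control and 27 in a therapy library, with 1 to 73 counts. Another 53 were seen in 2 to 4 libraries, 19 in 5 to 7 and 5 in 8 or 9. Only Iglv1 and Igkv1-117 had a count in all 10. By group, 59 members were seen in both, 47 (38.5%) in therapy libraries only and 16 (13.1%) in control libraries only, against 17.6% and 12.8% of those 18301 genes. Likeness of 2 libraries was taken as the smaller of their 2 shares of member counts, summed over segments. Its median was 37.2% for pairs of therapy libraries (10 pairs), 16.1% for pairs of control libraries (10 pairs) and 32.8% for pairs across groups (25 pairs). This measure falls where counts are few or 1 segment dominates. Control pairs include C1, with 33 member counts, and C2, with 53.4% in 1 segment, so the medians are not like for like.

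The widely expressed segments were those with enough counts for a test of their own. edgeR's quasi-likelihood test, fitted over 18668 genes, could take 5 members, and 0 of them passed an adjusted p under 0.05. It called 0 genes higher and 0 lower of all tested (0.0% each way). At an unadjusted p under 0.05, 3 of the 5 members were higher, against 1.9% of all genes tested, and 0 lower, against 1.02%. The filter asks for counts in as many libraries as a group holds, which a segment high in therapy libraries meets more easily, so this count is a description and stands for no other member.

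Igkv1-117 had 4, 2, 12, 14 and 17 counts in C1 to C5 and 16, 37, 29, 35 and 51 in T1 to T5. All therapy libraries but T1 exceeded every control, and the log2 fold change was 1.85 ± 0.56 (SE, edgeR unadjusted p = 0.00697, adjusted p = 0.985). Igkv1-110, which differs from it by a few bases at this end, had 0, 17, 10, 42 and 15 counts in the controls and 43, 76, 45, 237 and 36 after therapy. In CPM all but T1 exceeded C4, the highest control, and the log2 fold change was 2.39 ± 0.82 (SE, edgeR unadjusted p = 0.0132, adjusted p = 0.985), or 1.61 without T4. Igkv6-15 had 0, 9, 8, 16 and 9 counts in C1 to C5 and 37, 35, 12, 10 and 70 in T1 to T5. T1, T2 and T5 were high, and T3 and T4 lay within the control range (log2 fold change 2.03 ± 0.76, SE, edgeR unadjusted p = 0.0210, adjusted p = 0.985). Ighv5-17, the most abundant heavy segment, had 0, 4, 17, 2 and 24 counts in the controls and 68, 47, 8, 20 and 16 after therapy, with T1 and T2 above all controls (1.70 ± 0.85, unadjusted p = 0.0691 by edgeR). Iglv1, the main lambda segment, had 10, 16, 3, 32 and 18 counts in the controls and 20, 55, 8, 25 and 65 after therapy (1.18 ± 0.66, unadjusted p = 0.0998 by edgeR, and 0.71 without T5). Its groups overlapped, and only T2 and T5 were high.

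With no filter on low counts, edgeR on all 33285 genes with a count put 27 members (22.1%) at an unadjusted p under 0.05 on the higher side, against 2.63% of all genes, and 2 (1.64%) on the lower side, against 1.7%, with 0 past the adjusted threshold. DESeq2 put 14 members higher at an unadjusted p under 0.05 (11.5%, against 1.65%) and 0 lower (against 0.937%), and called 0 of them after adjustment (against 0.012% of all genes higher and 0.00601% lower). A count in any 1 library made a segment a member, and 47 members were seen in therapy libraries only, against 16 in controls only. Members are also sparse and not independent of each other. The shares at an unadjusted p are therefore descriptions and not separate results for each segment. For 2 members every therapy library exceeded every control, which held for 0.168% of all genes with a count. Among genes past the filter 0.236% had every therapy library above and 0.241% below every control, and 0 of the 5 tested members did either. Igkv5-43 had 0, 5, 4, 3 and 4 counts in the controls and 22, 7, 10, 10 and 13 after therapy. Igkv8-30 had 0, 0, 0, 6 and 4 in the controls and 23, 17, 9, 7 and 12 after therapy. Both are low kappa segments that the filter left out of the main test, and they were singled out after their values were seen.

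The other members of the rule were lower. Igkv10-96 was spread evenly, with 0, 8, 16, 14 and 4 counts in C1 to C5 and 15, 8, 8, 10 and 15 in T1 to T5, and its groups overlapped. Igkv8-28, the leading kappa segment of C5, had 19 counts there and 0 to 14 in the other libraries. Ighv2-9 had 0, 8, 0, 16 and 7 counts in the controls and 0, 12, 20, 2 and 0 after therapy. Ighv3-6 had 0 to 7 counts in controls and 12, 41, 6, 8 and 0 after therapy, with T2 high. Of the lesser lambda segments, Iglv2 had 0, 5, 4, 10 and 4 counts in controls and 0, 9, 0, 4 and 0 after therapy, and Iglv3 had 4 in C2 only. In C1 the leading heavy segment, Ighv3-3, had 2 counts, level with 1 other.

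Grouped by sequence family, only the kappa families Igkv1 and Igkv8 had all 5 therapy libraries above all controls. They are named for that result, and no like share was computed over other sets of genes. Of the 900 counts of Igkv1, 521 were of Igkv1-110 and 217 of Igkv1-117, so its sum mostly repeats these 2 segments. Igkv1, with 7 members, summed to 4, 23, 34, 66 and 36 counts in C1 to C5 and to 86, 119, 161, 280 and 91 in T1 to T5 (0.509 ± 0.347 and 2.40 ± 1.26 CPM, SD, n = 5 each). Igkv8, with 6 members, summed to 4, 7, 6, 18 and 23 in the controls and to 48, 50, 22, 32 and 48 after therapy. T3 and C5 were nearly level in counts, and T3 was the higher in CPM. Igkv6, with 8 members, exceeded all controls in 4 of 5 therapy libraries, with 0.282 ± 0.260 CPM in control and 1.14 ± 0.348 CPM after therapy. Igkv9 went the other way on its mean, 1.38 ± 2.96 against 0.262 ± 0.386 CPM, through C2 alone, which held 80.9% of its counts. The largest heavy family by members, Ighv1 with 21, summed to only 0 to 16 counts in the controls and 12 to 45 after therapy, fewer than the 5 members of Ighv5 (2 to 29 and 12 to 72). Segments in the J-proximal part of the heavy locus, the nearer 23 of the 46 members, took 69.8% to 100% of heavy counts in the controls and 40.2% to 80.6% after therapy. The 100% was C1, with 4 heavy counts in all, and the next control was C2 at 87.7%. The 40.2% was T5, and the next therapy library was T4 at 65.9%.

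The constant regions, spliced to the joined V segments in the same transcripts, were read in the same fit. Igkc, the kappa constant region, had 69, 1430, 162, 453 and 163 counts in C1 to C5 and 651, 721, 761, 824 and 911 in T1 to T5. The order of the control libraries, with C2 on top and C1 lowest, was that of the kappa variable sums, which were 27.5% to 85.9% of Igkc in controls and 44.5% to 75.5% after therapy. Heavy variable sums were 1.55% to 9.36% of the heavy constant counts in controls and 4.12% to 8.51% after therapy. The lowest control percentage of both chains was that of C1, with only 19 kappa and 4 heavy variable counts.

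**Figure D5:**
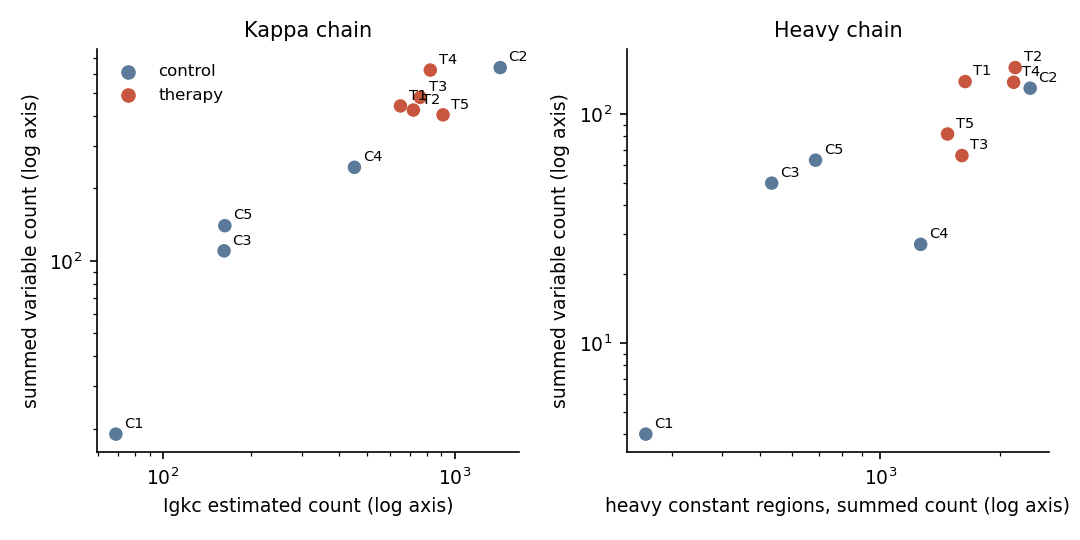
Summed variable segment counts against constant region counts of the same chain in the 10 libraries (both axes log), kappa at the left and heavy chain at the right, control and therapy in separate colors. The therapy libraries lie together at 651 to 911 Igkc counts, with C2 above them at 1430 and the other controls below at 69 to 453.

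Constant regions were not higher in equal measure. Igha, of IgA, had 32, 99, 192, 211 and 191 counts in the controls and 577, 776, 289, 690 and 737 after therapy, and Ighg2b had 18, 82, 69, 22 and 43 and then 180, 228, 134, 162 and 144. Both had every therapy library above every control, at log2 fold changes of 2.12 ± 0.43 and 1.88 ± 0.39 (SE, edgeR adjusted p = 0.985 for each). DESeq2 gave adjusted p of 0.00124 for Igha and 0.00706 for Ighg2b, while in edgeR, omitted libraries included, the adjusted p of either was 0.5235 or more, and in limma, which took Igha only, 0.524. Ighg3 had 0, 0, 0, 7 and 0 counts and then 12, 40, 12, 20 and 12. Ighg2c had a log2 fold change of 2.36 ± 1.10, Ighm of 0.43 ± 0.47, Ighd of -0.66 ± 0.85 and Ighe of -1.09 ± 0.95 (edgeR, adjusted p = 0.985 for each). Without C2 the value was -0.01 for Ighe and 0.71 for Ighm, and without T1 it was -1.71 for Ighe. Without C4 it was 0.43 for Ighd. Ighg2a is absent from the deposited genes, and whether reads of it were counted as Ighg2c in these BALB/c tumors was not tested. Ighg1 followed C2 and T3 rather than the groups, with 7, 1290, 33, 149 and 31 counts in controls and 276, 81, 748, 259 and 201 after therapy (log2 fold change 0.15 ± 1.12, SE, and 2.61 without C2). Jchain, which links IgA and IgM into polymers, had 28, 425, 31, 186 and 74 counts and then 287, 231, 173, 328 and 421 (1.0 ± 0.66, SE, and 1.89 without C2). Of the lambda constant regions, Iglc1 had 1 to 13 counts in controls and 3 to 44 after therapy, Iglc2 0 to 29 and 4 to 28, and Iglc3 0 to 7 and 3 to 19.

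Genes of the cells that make these chains showed 0 calls by edgeR in either direction. Of 12 B cell genes 10 were tested. At an unadjusted p under 0.05, 1 was higher (Spib, a B cell transcription factor, 1.19 ± 0.25) and 0 lower. Over all genes tested 1.9% were higher and 1.02% lower at that threshold. The B cell genes had a median log2 fold change of 0.29 against 0.02 over all genes. Their summed level was 1.14 to 2.92 FPKM in controls and 2.16 to 3.44 after therapy. Single B cell genes differed in C2, the library with the most segment counts. It had 5 counts of Ms4a1 (CD20), against 51 in C4, but 94 of Cd79b and 104 of Bank1, against 76 and 40. The B cell genes of C2 summed to 2.09 FPKM, against 2.92 in C4 and 1.14 to 1.83 in C1, C3 and C5. Of 11 plasma cell genes 10 were tested, 0 were higher and 1 lower at an unadjusted p under 0.05 (Eaf2), and Tnfrsf17, the receptor BCMA, had a count of 0 in every library. The plasma cell sum, 187 to 258 FPKM in controls and 183 to 278 after therapy, consisted mostly of Sdc1, Xbp1 and Txndc5, which many other cells express too. Mzb1, more restricted to B lineage cells, had 2, 32, 0, 26 and 21 counts in controls and 8, 3, 52, 28 and 16 after therapy.

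Of the genes for recombination and diversification 2 were tested and 0 were higher or lower at an unadjusted p under 0.05. Rag1, of the recombinase, had counts in C4, T1 and T5 (4, 8 and 4). Ung (repair, log2 fold change -0.05) and Dntt (-0.43) were the most abundant of that list. The surrogate light chain gene Vpreb1 had -0.89. Of 9 recruitment and survival genes tested 0 were higher and 1 was lower at an unadjusted p under 0.05 (Cxcr5, -0.77), against 1.9% and 1.02% of all genes tested. The most abundant, Cxcl12 and Tnfsf13b, had 0.14 and 1.43. Tnfsf13b had 2091 counts in T5, 141 to 571 in T1 to T4 and 97 to 577 in the controls, and T5 was far above the rest. Cxcl13, the chemokine that draws B cells, had 6, 39, 16, 443 and 175 counts and then 75, 416, 39, 207 and 204, and its groups overlapped. The joining segments, too low for a test, summed to 1.63 to 15.94 FPKM in controls (highest in C2) and 8.24 to 13.02 after therapy.

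T cell genes went in the same direction as the segments. By edgeR 7 of 10 were higher at an unadjusted p under 0.05, against 1.9% of all genes tested, and 0 lower, against 1.02%. After adjustment 0 passed. The T cell genes had a median log2 fold change of 1.01. Cd8a and Trbc1 had the highest CPM of them. Cd8a had 1.35 ± 0.44, and Trbc1 had -0.20 ± 0.57 (SE). They summed to 11.5 to 41.9 FPKM in controls, where C2 was again the highest, and to 12.5 to 50.9 after therapy. Lymph node stroma genes summed to 0.548 to 4.30 FPKM in controls (highest in C2) and 0.276 to 9.81 after therapy (highest in T2, lowest in T4). That sum is mostly Ccl21a, at a mean of 2.52 FPKM, against 0.0153 to 0.110 for the other genes. Whether lymphoid tissue was included in the samples was not tested. Ccl21a and Glycam1, the most abundant of that list, had log2 fold changes of 0.95 and 0.63. Keratinocyte genes, a sign of skin, were at 4.11 to 48.4 and 3.34 to 274.6 FPKM, highest in T2, with 0 of 5 past an unadjusted p of 0.05 (Krt14 1.39, Krt5 2.19). Macrophage genes had 0 of 6 past it (C1qa -0.01, Csf1r 0.12), Ptprc, the pan-leukocyte marker, had 0.30, and Fcgrt, an immunoglobulin transporter, 0.01. Epithelial tumor cell genes, the check of the labelled tissue, were high in every library, at 1805 to 2293 FPKM in controls and 1608 to 2683 after therapy (Krt8 -0.09, Krt18 0.20). The part of these cells in the segment sums was not tested.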

How the data were processed

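Tumor RNA was measured in 10 libraries (5 control, 5 therapy), although the series text speaks of triplicates. The authors checked reads with FastQC (cutadapt 1.9 is named in the submitters' processing notes), aligned them with HISAT2 and quantified them with StringTie after merging transcripts with gffcompare. The deposited table holds FPKM, which the authors scaled to transcript length and library size, and estimated counts per gene, whose origin is not given in the sources used here. The library kit does not mark strand. The methods and the processing notes name different annotations and builds, and coordinates and sequences here are those of GENCODE M21 (GRCm38), in which all 122 member IDs were found. No column was left unused (0).

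The members and gene lists were chosen with earlier results of these data known. The whole-number estimated counts were tested with edgeR 4.0.16 (TMM, filterByExpr, quasi-likelihood, Benjamini-Hochberg over 18668 genes, threshold 0.05). DESeq2 1.42.0, limma 3.58.1, other scalings and filters, a replicate block and each library left out were alternatives. The tests were checked on simulated data. Sums were compared as log2(CPM + 0.05), with no test. Draws of equal size used the exact expectation, and the larger draw was chosen after seeing the data. Same-numbered libraries deviated together by correlations of -0.268 to 0.371, so the numbers were not taken as pairs. Segments named are the 5 most abundant per locus, the leader of each locus in each library and the tested members, beside all constant regions and the 2 most abundant genes of each list or those discussed. Any other segment or list gene in the text was picked with its values in view. Results of some list genes are left out here, while the counts over lists cover them.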

Additional observations from a re-analysis of the deposited data

Results flagged for a closer look

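Within groups of 5 libraries, the highest or lowest library was set apart from the rest by Dixon's criterion in 19 of 73 tests. Chance flags about 1 in 20 groups, but this rate does not hold here, because segments were named for leading a library and many values are 0, so that a few counts in 1 library suffice. The values follow in CPM with the nearest other library of the group, and no explanation was tested.

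C2 stood apart among the controls in 7 values. Igkv9-120 was at 6.67 CPM (next 0.156), Igkv4-59 at 1.22 (next 0), Ighv4-1 at 0.773 (next 0) and Iglv3 at 0.0631 (next 0). The constant regions Ighg1, Igkc and Ighe were at 20.4 (next 2.32), 22.6 (next 7.06) and 1.69 (next 0.495).

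T4 stood apart by the share of its leading segment (30.04%, next 15.4%), by Igkv1-110 at 3.65 CPM (next 1.21) and by Ighv1-9 at 0.400 (next 0.0776). T3 did so by Igkv4-53 at 1.57 (next 0.0308) and Ighg1 at 13.8 (next 3.98). T5 did so by Ighv10-1 at 0.691 (next 0.128).

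T2 stood apart by Ighv3-6 at 0.654 CPM (next 0.155), Ighg2b at 3.64 (next 2.69), Iglc2 at 0.447 (next 0.131) and Igkv9-120 at 0.0957 (next 0). C1 did so by Ighv3-3 at 0.0376 (next 0), which is 2 counts, and C4 by Ighg3 at 0.109 (next 0).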

How the results depend on the processing

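Members past the adjusted threshold numbered 0 in edgeR under every scaling, filter and omitted library, 0 in limma and 0 in DESeq2. DESeq2 called 6 genes in all, against 0, and 2 of the constant region and B lineage genes, Igha and Ighg2b. The sums, top shares and effective numbers moved by less than 1 SD under the other settings, except that lambda without each library's most abundant segment gave -0.59 in place of 0.63. Detected segments differed by 3.9 in place of 19.8 when thinned to 33 counts, and by 10.2 when thinned to 167 without C1. With single libraries left out, the log2 difference of sums was 1.05 to 2.10 (heavy 0.95 to 1.96, kappa 1.12 to 2.28, lambda 0.32 to 0.99), the difference in detected segments 15.2 to 23.2, in top share -10.8 to 0.1 points and in effective number 1.6 to 5.7, and 0 genes were called. Ighg1 turned to -0.19, -0.17, -0.05 and -0.17 without C1, C3, C4 and C5, and to -0.63 without T3, against 2.61 without C2, and Ighd ranged from -1.03 without T4 to 0.43 without C4. The cause was not tested. With the replicate number as a block 0 genes were called, 444 at an unadjusted p under 0.05, and 0 members. Most members are below the depth at which edgeR tests them, so that a change of a single segment was mostly not detectable.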
